A study of Mus musculus with 13 samples.

Results

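Spinous keratinocytes, the cells of the layers just above the basal layer of the epidermis, were described in mouse abdominal skin before, during and after pregnancy. Cells were kept with 200 genes or more and with 10% or less of their UMIs from mitochondrial genes, and spinous cells were then chosen by measured values of their own RNA. A kept cell was counted as spinous when keratins Krt1 and Krt10 together held at least 0.8% of its UMIs (unique molecular identifiers, each standing for 1 captured RNA molecule), Lor held under 1% of them, it had under 3 UMIs of Krt79, and it had under 5 UMIs summed over the cycling genes Top2a, Mki67, Ube2c, Birc5, Cenpa and Cdk1. That rule took 5759 of 36927 kept cells, or 15.6%. Single-cell libraries of epidermis came from tamoxifen-treated C57BL/6 mice of the genotype Tbx3creERT2; R26H2B EGFP, in which tamoxifen lets cells that express Tbx3 switch on a nuclear green reporter. Each of 4 states had 1 library: non-pregnant mice (NP), gestation day 16 (dpc16), day 6 post partum (dpp6) and day 40 post partum (dpp40). With 1 library per state, the state, the animal and any batch cannot be told apart, no state was tested against another, and cells were not treated as replicates. A separate set of 9 bulk libraries measured sorted interfollicular basal cells (CD49f+ CD34-) with 3 libraries per group: wild type (WT) mice at dpc16, WT NP mice, and K14creERT2;Tbx3flox/flox conditional knockouts (cKO) at dpc16, in which the keratin 14 promoter drives the recombinase. The sources used here do not give the number of animals behind a library, the ages of the mice, or whether tamoxifen was also used in the bulk WT mice.

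Basal keratinocytes that leave the basement membrane switch from keratins 5 and 14 to keratins 1 and 10, build dense desmosomes and begin to make the lipids and envelope proteins of the skin barrier. Notch signalling, calcium and transcription factors such as Klf4 and Gata3 are known to act in this switch, and the cells later pass into the granular layer, where loricrin (Lor) and filaggrin-family proteins are made. Abdominal skin stretches in pregnancy, and the epidermis grows to cover the larger area.

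The 250 bases before the transcription start are shown for the 3 markers that have an entry in the RefSeq table (build GRCm38.p6), for Krt77, the keratin that stood out most by level beside the markers, and for Krt2, the named keratin furthest above NP at dpc16. Krt1 is the fourth marker. Each line runs 5′ to 3′ on the gene's strand. Capitals mark the TATA box (TATAAA), the AP-1 motif (TGANTCA) and the pattern TGCNCNC, searched on both strands. TGCNCNC is a looser form of the core of the metal response element, TGCRCNC, where R is A or G.
Krt10: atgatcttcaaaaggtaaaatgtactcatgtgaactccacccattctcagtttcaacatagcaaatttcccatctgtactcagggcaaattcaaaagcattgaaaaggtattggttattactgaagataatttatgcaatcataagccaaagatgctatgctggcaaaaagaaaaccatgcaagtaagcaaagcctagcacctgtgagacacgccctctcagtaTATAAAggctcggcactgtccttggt
Krtdap: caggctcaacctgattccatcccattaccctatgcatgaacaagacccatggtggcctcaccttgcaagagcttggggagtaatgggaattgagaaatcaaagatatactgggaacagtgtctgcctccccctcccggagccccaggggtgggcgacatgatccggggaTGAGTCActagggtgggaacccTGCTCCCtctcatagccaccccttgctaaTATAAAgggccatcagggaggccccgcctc
Mt4: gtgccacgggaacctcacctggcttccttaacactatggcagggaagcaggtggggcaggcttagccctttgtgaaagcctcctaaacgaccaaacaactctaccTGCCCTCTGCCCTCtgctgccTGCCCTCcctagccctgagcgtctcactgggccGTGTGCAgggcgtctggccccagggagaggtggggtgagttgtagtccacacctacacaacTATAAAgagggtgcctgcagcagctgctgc
Krt77: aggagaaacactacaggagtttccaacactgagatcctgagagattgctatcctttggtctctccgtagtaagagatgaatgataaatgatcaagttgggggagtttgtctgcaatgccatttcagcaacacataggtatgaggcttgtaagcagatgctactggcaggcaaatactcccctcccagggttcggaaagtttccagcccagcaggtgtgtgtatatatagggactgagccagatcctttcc
Krt2: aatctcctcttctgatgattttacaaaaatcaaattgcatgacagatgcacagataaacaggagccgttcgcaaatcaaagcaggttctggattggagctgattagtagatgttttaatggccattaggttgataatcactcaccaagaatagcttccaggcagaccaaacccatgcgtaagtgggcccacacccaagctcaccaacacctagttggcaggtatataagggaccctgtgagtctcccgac
These stretches lie at chr11:99389365-99389614 (minus strand), chr7:30787655-30787904 (plus), chr8:94136954-94137203 (plus), chr15:101869706-101869955 (minus) and chr15:101818170-101818419 (minus). A TATA box stood 26 bases before the start in Krt10 and 30 bases before it in Krtdap and in Mt4. TATAAA occurs anywhere in 12.4% of 32851 promoters of this length, and on the gene's strand with its first base 35 to 25 bases before the start in 1.75%. The Krtdap stretch had 1 AP-1 motif, 81 bases before the start, a motif that 6.75% of the promoters hold. The Mt4 stretch, that of a metallothionein, had 4 matches to the looser form of the metal response core. They lay 145, 138, 124 and 91 bases before the start, the last on the opposite strand. Of the promoters, 44.4% hold at least 1 match to the looser form and 1.28% at least 4. Only the Mt4 match at 91 bases is also a match to the core itself. Krtdap had 1 match to the looser form, 59 bases before the start, and it is not a match to the core itself. The letters of none of the 3 motifs occur in the stretches of Krt77 and Krt2. Only the exact letters TATAAA were searched, so other TATA forms, such as tatatata in Krt77 and tatataag in Krt2, were not marked. A match is a description of letters, not of a bound site.

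Spinous cells made up 15.2% of kept NP cells (988 of 6491), 18.5% at dpc16 (2372 of 12853), 12.2% at dpp6 (1105 of 9031) and 15.1% at dpp40 (1294 of 8552). The exact (Clopper-Pearson) 95% intervals were 14.4 to 16.1%, 17.8 to 19.1%, 11.6 to 12.9% and 14.4 to 15.9% in the order NP, dpc16, dpp6 and dpp40, and like all intervals here they cover counting error only, not the spread between animals. The share was highest in the dpc16 library and lowest in the dpp6 library, and shares of NP and dpp40 lay within each other's intervals. Spinous cells were deep: the median was 7594.5, 7950, 7920 and 8510 UMIs in the 4 libraries, against 4436, 4101, 4761 and 5367 in all other kept cells. Their medians were 2160.5, 2099.5, 2132 and 2264.5 genes, and 849, 817, 846 and 842 once every cell was thinned to 2000 UMIs. Libraries held 40450455 (NP), 74804602 (dpc16), 56849153 (dpp6) and 63492242 (dpp40) UMIs, and pairs of libraries shared 70 to 147 cell barcodes.

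The label was checked against its 4 markers, 2 of which the rule uses. Levels below are UMIs per 1000000 UMIs summed over the spinous cells of a library (CPM), from reads at the 3′ end, so they need no correction for length. Krt10, the type I keratin of these layers, had 16575 CPM in NP, 15138.5 at dpc16, 18046 at dpp6 and 19055 at dpp40, and its partner Krt1 had 3109, 4686, 3176 and 2169 CPM in the same order; both were used in the choice of cells. Krtdap, a secreted protein of differentiating keratinocytes, had 19116 CPM in NP, 10625 at dpc16, 13964 at dpp6 and 18198 at dpp40, against 788, 551, 389 and 769 CPM in basal cells of the same libraries (Krt5 and Krt14 together at least 1% of UMIs). Mt4, the metallothionein of stratified epithelia, had 2096 CPM in NP, 1358 at dpc16, 968 at dpp6 and 1130.0 at dpp40 in spinous cells, against 131, 82.9, 31.6 and 70.1 CPM in basal cells. All 4 markers were above basal cells in each library. Cells that met the spinous rule were not counted as basal, so the contrast in Krt1 and Krt10 follows from the choice of cells. Krtdap and Mt4 are not part of the rule, and their higher levels fit cells above the basal layer. Since measured values chose the cells, no test was made. The 4 markers together held 40896, 31808, 36154 and 40552 CPM in spinous cells, against 1750.4, 1640.1, 1127 and 1834 in basal cells. In granular cells (Lor at least 1% of UMIs) they held more, 63576, 44541, 51104 and 53694 CPM. Their sum thus does not set spinous cells above granular cells, which the Lor limit of the rule keeps apart.

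Cells of other types left small traces. Summed markers of Langerhans and myeloid cells were 269 CPM in NP, 217 at dpc16, 456 at dpp6 and 218 at dpp40 in spinous cells, those of T cells 47.9, 57.8, 65.8 and 33.5 CPM and those of melanocytes 5.01, 4.53, 5.26 and 6.98 CPM. Markers of dermal and endothelial cells summed to 4.16, 2.4, 3.48 and 2.21 CPM, those of the inner root sheath to 11.8, 11.5, 10.4 and 11.3 CPM, and those of Merkel cells to 0.213, 0.181, 0.0940 and 0.402 CPM. The sebaceous list gave 412, 319, 388 and 423 CPM in spinous cells, against 267, 201, 239.6 and 219.7 in basal cells, and several of its genes are lipid genes that keratinocytes use. The upper follicle list gave 2235, 1650.0, 2559.6 and 2079 CPM and the bulge list 5664, 4493, 4492 and 5049 CPM, both with genes that interfollicular cells also express. Basal keratinocyte markers summed to 10488, 10467, 9441 and 9566 CPM in spinous cells, against 31373, 35199, 35025 and 31492 CPM in basal cells. In 22, 145, 51 and 37 spinous cells, or 2.23, 6.11, 4.62 and 2.86% of them, Krt5 and Krt14 also reached 1% of UMIs. Whether such a barcode held 1 cell with both keratin pairs was not tested. Immune markers reached 1% of UMIs in 6, 9, 15 and 7 spinous cells.

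The cut through the data was gradual. Just inside the keratin threshold (0.8 to 1.0% of UMIs) lay 109, 179, 116 and 141 cells in NP, dpc16, dpp6 and dpp40, and just outside it (0.6 to 0.8%) lay 107, 149, 97 and 139. Krtdap was at 7747, 4032, 4188 and 6159 CPM just inside, against 5043, 3209.9, 2641 and 3707 CPM just outside. Mt4 was at 1639.9, 949.7, 693 and 1017 CPM just inside, against 1148, 746, 552 and 843 CPM just outside, and Krt14 at 2127, 3948, 3824 and 2147 CPM inside, against 2328, 4664, 3730.0 and 3326 CPM outside. The cells on both sides of the line thus differed by less than 2-fold in these genes. The Lor limit removed 32, 26, 20 and 50 cells, the Krt79 limit 118, 179, 106 and 186, and the cycling limit 55, 36, 18 and 43, each counted among cells past the keratin threshold.

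Beside the genes of the rule, the genes that set spinous cells apart from all other kept cells in every library were keratins, lipid enzymes and a few regulators, given as a description because the choice of cells fixes their direction. Krt77, a type II keratin of these layers in mice, had 5711 CPM in NP, 3495 at dpc16, 6107 at dpp6 and 8152 at dpp40 in spinous cells. Its level was 211, 134, 191 and 318 CPM in basal cells and 276, 198, 252 and 544 CPM in immune cells. Keratin UMIs of immune cells are taken as free RNA in the droplets, but cells of mixed type were not left out of that class. Basal keratinocyte markers summed to 10361.5, 16920, 9516 and 13701 CPM in it, so it is no clean measure of background. After thinning to 2000 UMIs, 93.4, 84.4, 95.6 and 97.3% of spinous cells held a Krt77 UMI, against 32.7, 25.4, 27.6 and 44.7% of immune cells (median depth before thinning 4128, 4606, 3925 and 5687 UMIs). Krt78, another type II keratin, had 167 CPM in NP, 105 at dpc16, 174 at dpp6 and 226 at dpp40, while basal cells stayed between 3.15 and 5.12 CPM. Both keratins were lowest in the dpc16 library and highest in the dpp40 library.

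Among the lipid genes, Elovl4, which makes the very long fatty acids of barrier ceramides, had 329.7 CPM in NP, 323 at dpc16, 315 at dpp6 and 363 at dpp40, and Acer1, an alkaline ceramidase of the epidermis, had 216, 202, 226 and 239.8 CPM in the same order. Neither lipid gene was 2-fold apart between any pair of libraries. Them5, a mitochondrial thioesterase, had 296, 348, 316 and 284 CPM, Tesc, a calcium-binding protein, 239, 179, 241 and 233 CPM, and Gsta2, a glutathione transferase, 117, 132, 132 and 89.7 CPM. Kctd12 had 156, 101, 173 and 207 CPM and Skint10, a member of an immunoglobulin family of the epidermis with close copies nearby, 128, 98.3, 176 and 216 CPM. Ifitm6, of the interferon-induced transmembrane family, had 137 CPM in NP, 40.2 at dpc16, 125 at dpp6 and 190.4 at dpp40, and Serpinb12, an intracellular protease inhibitor, had 89.4 CPM in NP, 213 at dpc16, 85.9 at dpp6 and 26.3 at dpp40. Those last 2 genes moved most with the state: Ifitm6 was low in the dpc16 library and Serpinb12 high in it. In basal cells Serpinb12 had only 1.51, 5.63, 1.63 and 0.688 CPM.

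**Figure D1:**
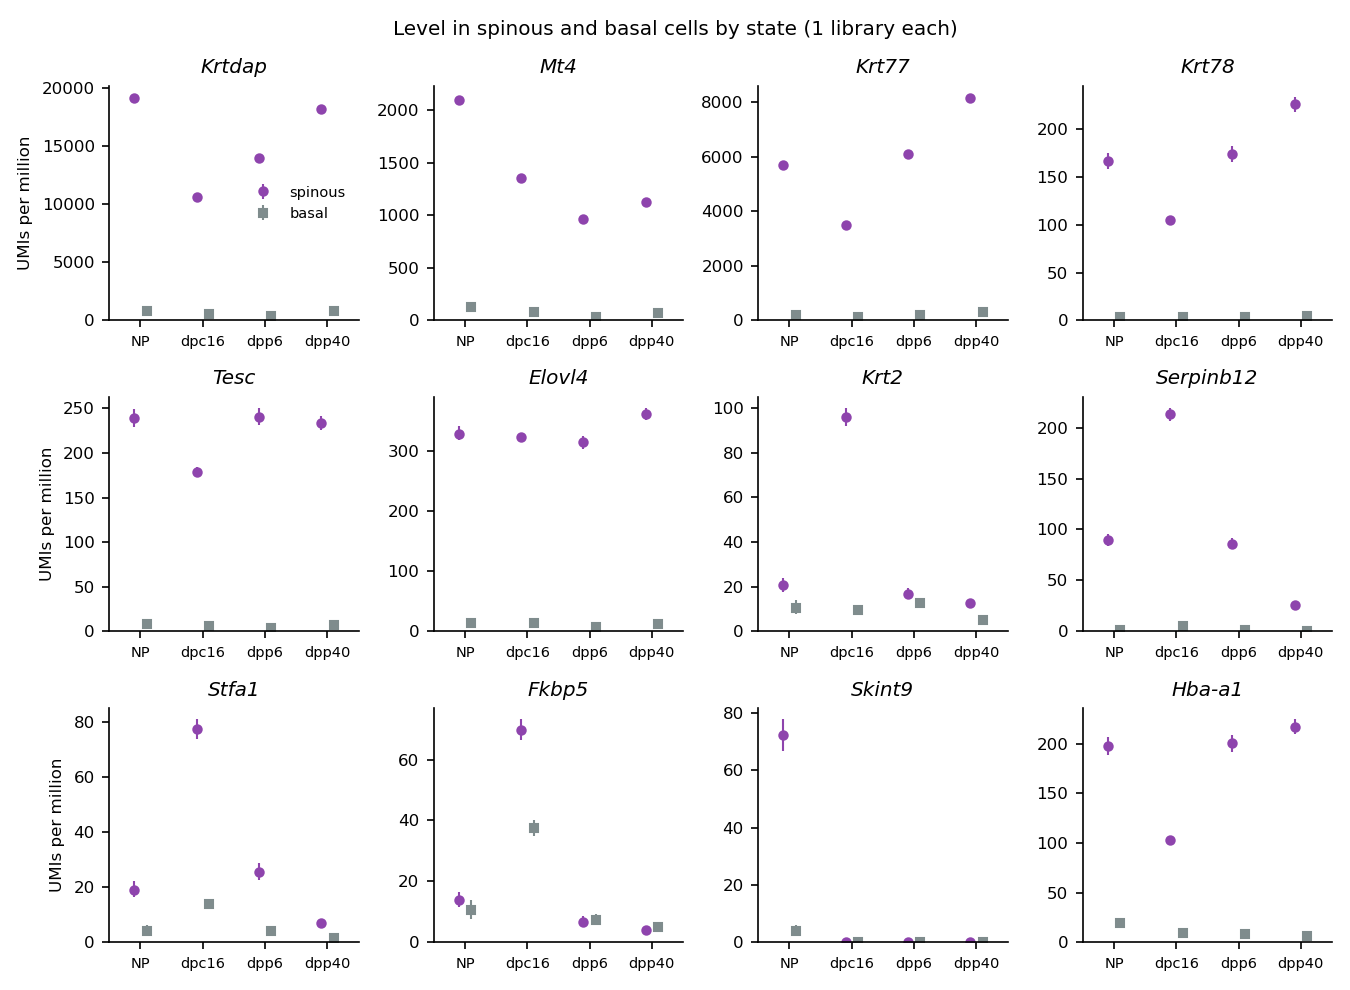
Levels of 12 genes in spinous cells (circles) and basal cells (squares) of each library, in CPM on linear axes that start at 0, with exact 95% Poisson bars that cover counting error only. Spinous cells lie above basal cells for Krtdap, Mt4, Krt77, Krt78, Tesc, Elovl4, Serpinb12, Stfa1 and Hba-a1 in each library, while Krt2 stands out at dpc16 alone (95.9 CPM) and Fkbp5 in basal cells is above spinous cells at dpp6 and dpp40.

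Spinous cells were not uniform. The Krt1 and Krt10 share had a median of 1.78, 1.87, 1.87 and 1.84% in NP, dpc16, dpp6 and dpp40, its 5th percentile lay between 0.876 and 0.942% and its 95th between 3.29 and 4.05%. Cells were set in 3 bins of that share, 0.8 to 1.6%, 1.6 to 3.2% and 3.2% or more, the last with 94, 150, 151 and 175 cells. Since the bins come from the same UMIs, what follows is a description. Krt14, the basal keratin, had 1948, 942 and 399 CPM in the low, middle and high bin of NP, 3266.5, 1409 and 572 at dpc16, 2670.2, 1229 and 332 at dpp6 and 2189.6, 1195 and 504 at dpp40. Col17a1, a hemidesmosome collagen of basal cells, had 567, 383 and 139.6 CPM in NP and 553, 315 and 131 CPM at dpc16 over the same bins. Both basal genes thus stood lower with each step up in Krt1 and Krt10, in all 4 libraries.

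Genes of differentiation ran the other way. Krtdap had 10709.7, 22914 and 33404 CPM over the bins in NP, 6063, 12432 and 19569.9 at dpc16, 6572, 15297 and 27460.4 at dpp6 and 8228, 21119.9 and 31421 at dpp40. Krt77 had 2807, 6641 and 13015.5 CPM in NP, 1789.6, 4152 and 7013 at dpc16, 2862, 6613 and 12319 at dpp6 and 3584, 9119 and 15741 at dpp40. Within each bin, the dpc16 library was the lowest of the 4 for Krtdap and Krt77. Mt4 had 1867, 2270.3 and 2048 CPM in NP, 1175, 1453 and 1507 at dpc16, 874, 1079.5 and 798 at dpp6 and 1149, 1190.1 and 834 at dpp40, so it was higher in each higher bin at dpc16 and highest in the middle bin of the other libraries. Notch3, a receptor that keratinocytes gain as they leave the basal layer, had 41.0 CPM in NP, 35.2 at dpc16, 39.0 at dpp6 and 44.3 at dpp40, against 2.8, 4.2, 3.35 and 3.44 CPM in basal cells, while Notch1 had 93.5, 81.7, 95.6 and 85.8 CPM in spinous cells, against 78.5, 79.7, 82.3 and 72.0 CPM in basal cells.

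**Figure D2:**
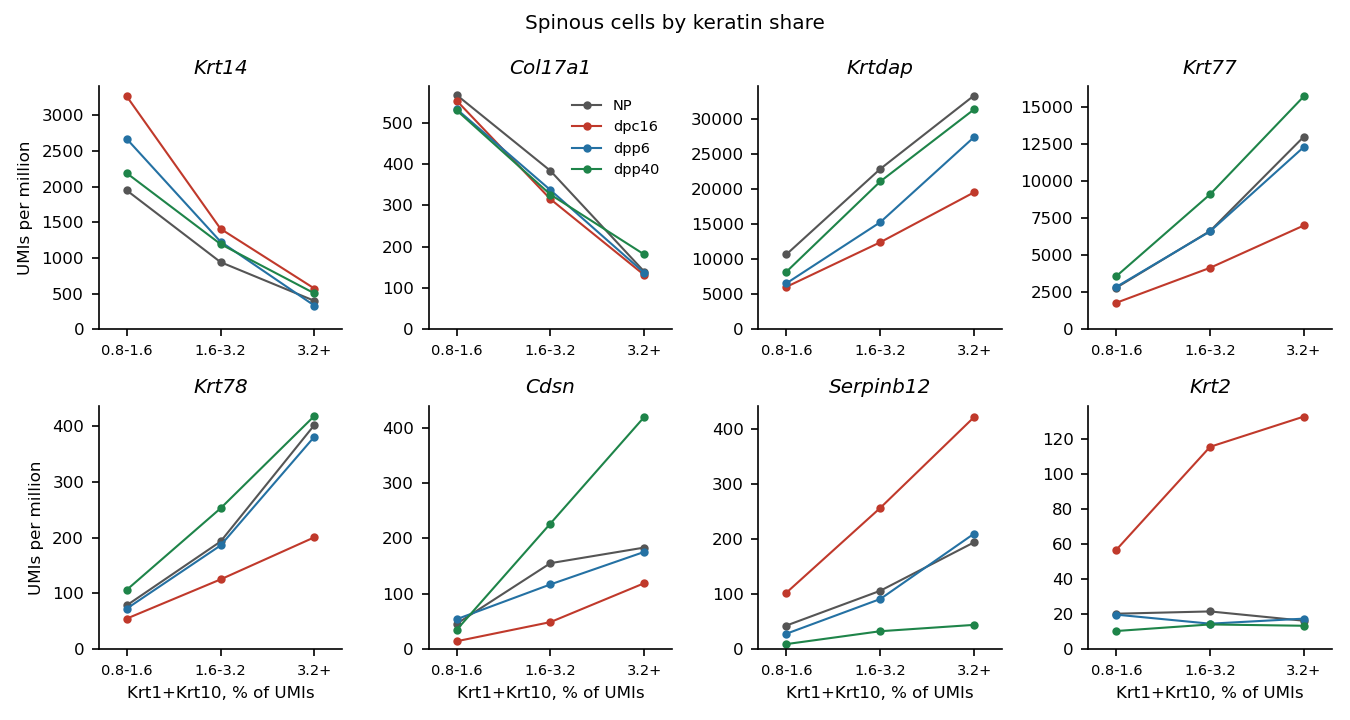
Levels of 8 genes in CPM (linear axes that start at 0) in spinous cells of 3 bins of Krt1 and Krt10 share, 0.8 to 1.6%, 1.6 to 3.2% and at least 3.2% of UMIs, with 1 line per library. Krt14 and Col17a1 are lower and Krtdap and Krt77 higher with each step, and the dpc16 line is the lowest for Krtdap, Krt77, Krt78 and Cdsn and the highest for Serpinb12 and Krt2.

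At dpc16 against NP, 41 of 6798 genes with a mean of at least 10 CPM were 2-fold or more higher in spinous cells (0.603%) and 93 were 2-fold or more lower (1.37%), or 1.97% either way. Scaled by median-of-ratios size factors in place of all UMIs, which adds 0.13 to every log2 ratio of dpc16 against NP and moves the median over all genes to 0.05 from -0.09, the split was 49 higher and 67 lower. Serpinb12, Krt2, stefin A genes and Fkbp5 were among the named genes high at dpc16 whose level in spinous cells of that library was above both basal and immune cells. Serpinb12 (chromosome 1, 106934449 to 106957080, mm10) was 2.38 times its NP level (95% counting interval 2.21 to 2.57). Krt2, a type II keratin of late differentiation (chromosome 15, 101810689 to 101818169), had 20.6 CPM in NP, 95.9 at dpc16, 16.7 at dpp6 and 12.7 at dpp40 in spinous cells, which made dpc16 4.66 times NP (4.02 to 5.43). In basal cells Krt2 had 10.5, 9.45, 12.7 and 5.04 CPM in the same order, and in immune cells 8.31, 10.4, 1.8 and 4.62 CPM. Krt2 was highest in the dpc16 spinous cells, while basal cells lay close to immune cells in NP and at dpc16. Only 2 immune cells in NP and 9 at dpc16 held a Krt2 UMI, so the immune values rest on few UMIs. After thinning, 5.36, 9.44, 2.9 and 2.4% of spinous cells held a Krt2 UMI, against 2.38, 1.88, 2.61 and 1.21% of basal cells, and the exact binomial intervals of spinous cells were 8.3 to 10.7% at dpc16 and 4.04 to 6.96% in NP. Along the keratin bins Krt2 at dpc16 had 56.7, 116 and 133 CPM, against 20.2, 21.5 and 16.2 CPM in NP.

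Stefin A genes formed a group of their own at dpc16. These cysteine protease inhibitors are encoded in a cluster of near-identical copies on mouse chromosome 16, so the division of UMIs among them is uncertain. Stfa3 had 15.6 CPM in NP, 140.5 at dpc16, 17.4 at dpp6 and 4.96 at dpp40 in spinous cells, against 25.2, 83.9, 34.6 and 10.6 CPM in basal cells. Stfa1 had 19.2 CPM in NP, 77.3 at dpc16, 25.6 at dpp6 and 6.91 at dpp40, against 4.09, 14.1, 4.17 and 1.76 CPM in basal cells, and BC100530 had 14.8, 58.3, 27.1 and 6.3 CPM in spinous cells. All of them were highest at dpc16 and lowest at dpp40, where Stfa3 was 0.319 and Stfa1 0.360 times NP. Among thinned spinous cells, 3.04, 21.3, 3.17 and 0.927% held a Stfa3 UMI.

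Fkbp5, a chaperone gene known to be induced by glucocorticoid and progestin receptors (chromosome 17, 28399094 to 28517527), had 14.0 CPM in NP, 69.8 at dpc16, 6.77 at dpp6 and 4.23 at dpp40 in spinous cells, against 10.5, 37.6, 7.42 and 5.2 CPM in basal cells and 29.1, 45.1, 27.0 and 15.4 CPM in immune cells. Its dpc16 level was 5.0 times NP (4.18 to 6.02), and both postpartum levels were below NP. In spinous cells Fkbp5 was the single member of the 14 tested glucocorticoid-inducible genes that was 2-fold or more higher at dpc16, and Ddit4 was the single one 2-fold or more lower, with 27.7 CPM at dpc16 and 78.3 CPM in NP. The list's median log2 ratio was -0.03, against -0.09 over all 6798 genes, and at dpp6 and at dpp40 Fkbp5 was its single member past 2-fold, lower in both. Prlr, the prolactin receptor, had 29.6 CPM in NP, 70.1 at dpc16, 31.7 at dpp6 and 21.7 at dpp40 and Cish, a feedback inhibitor induced by STAT5, had 32.1 CPM in NP, 75.1 at dpc16, 50.3 at dpp6 and 39.0 at dpp40. Those were the 2 of 8 tested prolactin and STAT5 genes that were 2-fold or more higher at dpc16, against 0.603% of all genes, in a list whose median was -0.13. Immune cells had 52.0 CPM of Prlr at dpc16 and 49.8 CPM in NP, so the NP level in spinous cells was not above that of immune cells.

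Several other genes that were high at dpc16 were not above basal cells. Pyy, which encodes the gut hormone peptide YY, had 19.3 CPM in NP, 75.5 at dpc16, 151 at dpp6 and 11.9 at dpp40 in spinous cells, against 14.0, 182, 191 and 18.2 CPM in basal cells. Mmp2, a secreted matrix protease, had 57.6 CPM at dpc16 and 16.9 CPM in NP, against 74.4 and 20.7 CPM in basal cells of dpc16 and NP. Phgdh, the first enzyme of serine synthesis, had 101 CPM at dpc16, against 213 CPM in basal and 114 CPM in immune cells of that library. Mid1 and the unnamed locus Gm26917 had nearly the same level in spinous, basal and immune cells at dpc16, 52.9, 61.7 and 56.7 CPM for Mid1. Tgm3, a transglutaminase of the cornified envelope, had 11.6 CPM in NP, 42.6 at dpc16, 14.2 at dpp6 and 4.9 at dpp40 in spinous cells. Its dpc16 level was below that of basal cells (193) and of immune cells (86.7), so it was not taken as a trait of spinous cells. Thy1 was also below both classes at dpc16, with 42.9 CPM in spinous cells, against 180.0 in basal and 183 in immune cells.

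Late differentiation genes were low in dpc16 spinous cells. Of 22 tested granular and cornified envelope genes, 7 were 2-fold or more lower at dpc16 than in NP (Lor, Flg2, Klk7, Nccrp1, Cdsn, Kprp and Il1f5) and 1, Tgm3, was 2-fold or more higher, where 1.37% of all tested genes were lower. The list's median log2 ratio was -0.75, and it lay between -0.89 and -0.36 under the alternatives tried. Cdsn, the corneodesmosin that glues cornified cells together, had 115 CPM in NP, 40.8 at dpc16, 103 at dpp6 and 188 at dpp40, against 7.32, 5.35, 7.11 and 10.3 CPM in basal cells. Without spinous cells of more than 2 times the median UMIs its dpc16 log2 ratio was -0.79, against -1.50 with them. Flg2, a filaggrin-like protein, had 129 CPM in NP, 35.4 at dpc16, 88.4 at dpp6 and 167 at dpp40 in spinous cells. In NP immune cells it had 87.2 CPM, so its NP value is not far above theirs. Lor itself is limited by the rule and had 501, 224, 316 and 642 CPM in spinous cells, against 494, 242, 271 and 421 CPM in immune cells, so it was above the immune level at dpp6 and dpp40 and close to it at dpc16 and in NP. The immune cells' Lor was also lower at dpc16 than in NP, and the part of free RNA in the list's values was not tested. Krt14 was at 2012 CPM in dpc16 spinous cells and 1282 CPM in NP ones, and with equal weights for the 3 keratin bins the list's median was -0.75. The share of spinous cells with no Lor UMI was 10.7, 25.4, 15.2 and 4.56%, and 51.5, 70.8, 62.3 and 43.5% after thinning. In the highest keratin bin Cdsn had 119 CPM at dpc16 and 183 CPM in NP, and in the middle bin 48.7 CPM at dpc16 and 155 CPM in NP.

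Several of the named genes low at dpc16 were highest in other layers or cells. Serpina12, the serpin vaspin, had 67.2 CPM in NP, 12.8 at dpc16, 28.6 at dpp6 and 77.1 at dpp40 in spinous cells, against 1784, 1262, 1868 and 1144 CPM in granular cells (Lor at least 1% of UMIs). Krt23 had 57.4, 16.7, 43.3 and 82.0 CPM, with 3493 CPM in NP granular cells. Ly6a, the surface protein Sca-1, had 119 CPM in NP, 25.6 at dpc16, 25.7 at dpp6 and 71.2 at dpp40 in spinous cells, against 351, 80.3, 51.7 and 209.7 CPM in basal cells. Txnip, an inhibitor of thioredoxin whose transcription follows glucose, had 305 CPM in NP, 86.2 at dpc16, 143 at dpp6 and 255 at dpp40 in spinous cells, against 409, 151, 231 and 334 CPM in basal cells. Sema3d, a secreted guidance cue, had 93.1 CPM in NP, 24.5 at dpc16, 76.3 at dpp6 and 91.7 at dpp40, and Ifitm6 at dpc16 was 0.294 times NP (0.270 to 0.321). Tspan8 had 88.4, 31.3, 78.8 and 132 CPM in spinous cells and 131, 169, 142 and 105 CPM in immune cells.

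Skint9, of the same family as Skint10, was detected in 1 of the 4 single-cell libraries. It had 72.3 CPM in NP spinous cells (678 UMIs), and no UMI in the spinous cells of dpc16, dpp6 or dpp40. A count of 0 allows up to 0.136, 0.282 and 0.201 CPM there (3 UMIs per library), so dpc16 was at least 532-fold lower than NP. Basal, granular and immune cells showed the same division, with 3.87, 30.9 and 2.08 CPM in NP and 0 in the other libraries. The bulk libraries of other mice listed 1.3, 2.7 and 4.41 FPKM for WT dpc16 and 6.28, 2.85 and 3.41 FPKM for WT NP, so there the gene was detected in pregnancy.

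**Figure D3:**
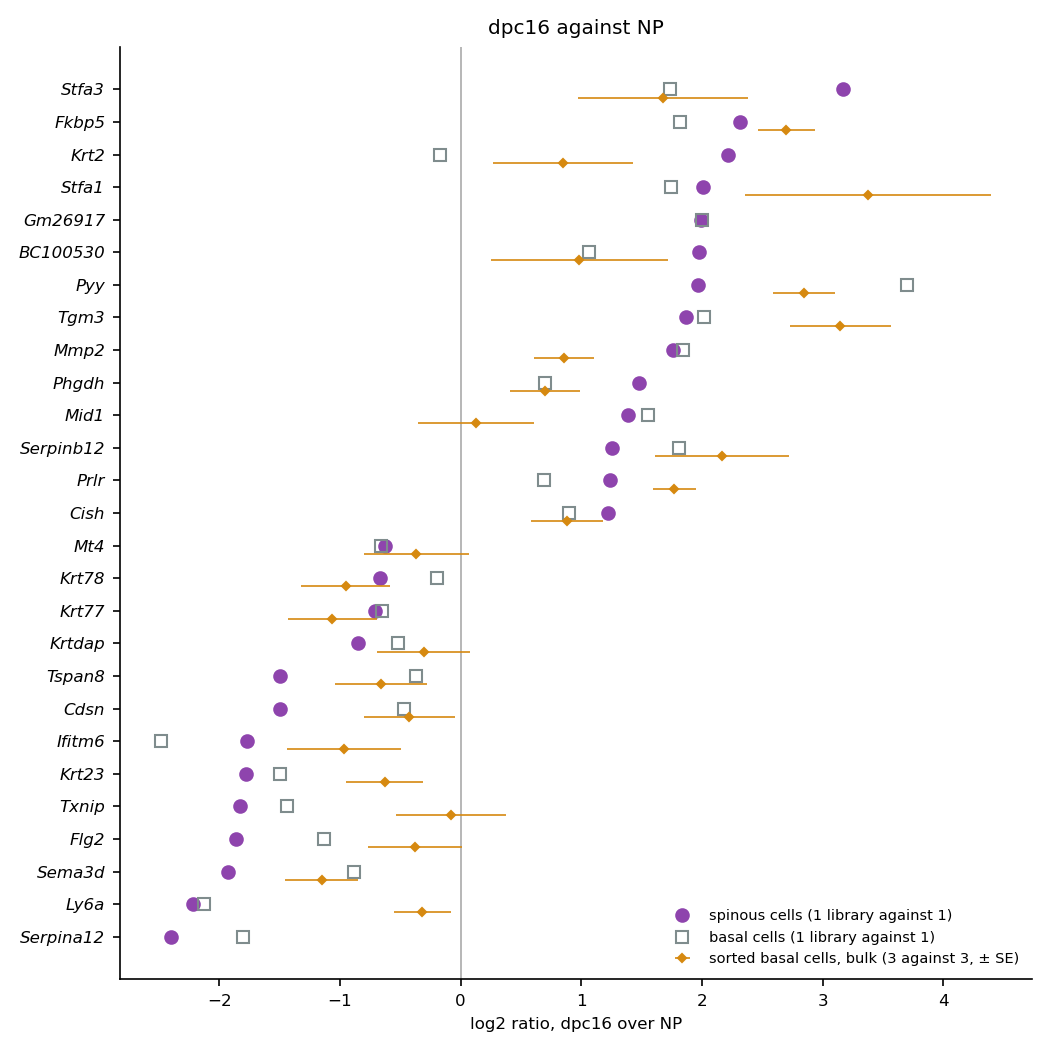
Differences between dpc16 and NP on a log2 scale for named genes: circles are spinous cells and open squares basal cells, each 1 library against 1 library with 0.5 counts added, and diamonds are bulk sorted basal cells on the log2(FPKM + 1) scale with bars of ± 1 SE (3 libraries against 3). Krt2 stands at 2.22 in spinous cells and -0.17 in basal cells; Skint9, with no UMI at dpc16, is left out.

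The bulk libraries gave the only replicated view of dpc16 against NP, in sorted basal cells of other mice, so a difference there need not be one in spinous cells. In bulk samples, fewer cells of a type and less RNA per cell cannot be told apart. Of 11497 genes tested on log2(FPKM + 1) with limma and Benjamini-Hochberg adjustment, 12 passed as higher (0.104%) and 3 as lower (0.0261%). Of the 10 genes named as high at dpc16 in spinous cells, 9 were tested, all 9 had a positive log2 change (46% of all genes did), 6 had all 3 dpc16 libraries above all 3 NP libraries (6.82% of all genes did) and 2 passed, Fkbp5 and Pyy. The median of the 9 was 0.98. Of the 10 named as low, 9 were tested, all 9 had a negative log2 change (53.9% of all genes did), 2 had separate groups (8.77%) and none passed, with a median of -0.48; with no adjustment, 1 of those 9 had a p under 0.05, as had 1040 of all 11497 genes.

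Fkbp5 measured 44.7, 56.0 and 37.8 FPKM in the WT dpc16 libraries, against 5.76, 5.28 and 7.73 FPKM in the WT NP libraries. Its log2 change on the log2(FPKM + 1) scale was 2.70 (SE 0.24), with a limma adjusted p of 0.00242, in a range of 0.00185 to 0.0620 over the alternatives. Pyy averaged 245 ± 56.1 FPKM in WT dpc16, against 33.3 ± 8.42 FPKM in WT NP (SD, n = 3 each). Its log2 change was 2.85 with an SE of 0.26 and a limma adjusted p of 0.00242 (range 0.00185 to 0.0708). Prlr averaged 27.7 ± 1.95 FPKM in WT dpc16, against 7.44 ± 1.18 FPKM in WT NP (SD, n = 3 each), with a limma adjusted p of 0.00411 (range 0.00311 to 0.0606). The groups did not overlap for these 3 genes, and each lost its call when genes of low FPKM were kept in the test. Tgm3 rose as well, with 112, 111 and 107 FPKM in WT dpc16, against 19.8, 4.84 and 15.4 FPKM in WT NP, and a limma adjusted p of 0.0252 (range 0.0126 to 0.223); its call was also lost without any 1 of the WT dpc16 libraries and without NP library 3.

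Serpinb12, Krt2 and Stfa3, which were also high in dpc16 spinous cells, did not pass in bulk. Serpinb12 measured 5.28, 3.78 and 16.7 FPKM in WT dpc16, against 0.577, 1.33 and 0.611 FPKM in WT NP (limma adjusted p 0.215). Krt2 measured 2.74, 2.26 and 6.81 FPKM in WT dpc16, against 2.06, 2.05 and 0.744 FPKM in WT NP (limma adjusted p 0.720), and Stfa3 82.4, 121 and 467 FPKM in WT dpc16, against 52.3, 32.6 and 80.2 FPKM in WT NP (limma adjusted p 0.504). The groups did not overlap in any of these 3 genes, though the margin was narrow for Krt2 and Stfa3. Over all genes, 6.82% had all 3 dpc16 libraries above all 3 NP libraries. In each of these genes, dpc16 library 3 was the highest. That library also held more spinous RNA, with 1605.5, 1885 and 4831 FPKM of Krt10 and 1845, 2093 and 6118 FPKM of Krtdap in dpc16 libraries 1, 2 and 3, against 3051, 3317 and 2593 and 4001, 3675 and 3030.0 FPKM in the NP libraries, and its part in these values was not tested. Krt77 measured 274, 368 and 893 FPKM in WT dpc16, against 880.2, 1056 and 889 FPKM in WT NP, a log2 change of -1.06 with a limma adjusted p of 0.379, where the same library overlapped NP.

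At dpp6 against NP, 35 of the 6798 genes were 2-fold or more higher in spinous cells (0.515%) and 28 were 2-fold or more lower (0.412%), or 0.927% either way. The dpc16, dpp6 and dpp40 comparisons share the NP library, so likeness between them was not measured. Sprr1a, a small proline-rich protein of the envelope that is known to mark stressed epidermis, had 102 CPM in NP, 117 at dpc16, 319 at dpp6 and 193 at dpp40, and dpp6 was 3.13 times NP (2.91 to 3.37). Krt16, a keratin of wounded and hyperproliferative epidermis, had 17.7, 36.3, 46.9 and 33.5 CPM, and Hbegf, a growth factor of the EGF family, 30.9, 43.7, 75.1 and 40.4 CPM. These were the 3 of 8 tested stress keratins and alarmins that were 2-fold or more higher at dpp6, in a list with a median of 0.50, while at dpc16 the 3 were Krt16, Stfa1 and Stfa3. Fosl1, an AP-1 subunit, had 37.5 CPM in NP, 64.4 at dpc16, 112 at dpp6 and 53.3 at dpp40 in spinous cells, against 101, 129.9, 244 and 171 CPM in basal cells, and Tnfrsf12a, Ifi202b and Thbs1 were likewise lower in spinous than in basal cells of each library.

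Genes of glucose use stood higher after birth. Of 18 tested glycolysis and hypoxia genes, 4 were 2-fold or more higher at dpp6 (Pfkl, Tpi1, Egln3 and Ndrg1), against 0.515% of all genes, and none was 2-fold or more lower. A ratio above NP was found for 17 of the 18, against 49.9% of all genes, with a median log2 ratio of 0.74, against -0.00 over all genes. Under the alternatives that median lay between 0.59 and 0.77. Tpi1, triosephosphate isomerase, had 86.6 CPM in NP, 88.4 at dpc16, 193 at dpp6 and 156 at dpp40, Aldoa, an aldolase, 269.5, 291, 443 and 353 CPM and Gapdh 195, 220.2, 334 and 274 CPM in the same order. Egln3, an oxygen sensor that hypoxia induces, had 8.31 CPM in NP, 13.7 at dpc16, 38.3 at dpp6 and 20.5 at dpp40. Ndufa4l2, a mitochondrial protein known as a hypoxia target, had 446 CPM in NP, 239.5 at dpc16, 1144 at dpp6 and 849.6 at dpp40 in spinous cells, against 429, 378, 1134 and 825 CPM in basal cells. These genes were highest at dpp6 and next at dpp40, in basal cells as in spinous cells for Tpi1, Aldoa and Ndufa4l2, and Tpi1 had 125, 133, 250.4 and 203 CPM in immune cells. In bulk, Ndufa4l2 measured 489, 387 and 531 FPKM in WT dpc16, against 1122.5, 1118 and 1031 FPKM in WT NP, with no overlap of the groups and a limma adjusted p of 0.152 (range 0.0187 to 0.492).

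Metallothioneins were lower in several states. Mt4 in spinous cells was 0.462 times NP at dpp6 (0.451 to 0.473), 0.648 times at dpc16 and 0.539 times at dpp40. Mt1 had 1629 CPM in NP, 920.4 at dpc16, 956 at dpp6 and 1550.3 at dpp40 and Mt2 1026 CPM in NP, 622 at dpc16, 594 at dpp6 and 1000.4 at dpp40, so both were under 2-fold from NP in each state. Mt4 at dpp6 was the single member past 2-fold among 4 tested metallothionein and zinc genes. At dpp40 Mt1 and Mt2 were at 0.952 and 0.975 times NP while Mt4 was lower. Mtf1, the zinc sensor that drives metallothionein genes, had 16.2, 15.4, 16.6 and 15.0 CPM. After thinning, 85.7, 81.7, 68.1 and 69.0% of spinous cells held an Mt4 UMI, against 18.1, 12.5, 4.81 and 10.6% of basal cells. Dbp, a clock-controlled transcription factor, had 23.2 CPM in NP, 38.4 at dpc16, 64.7 at dpp6 and 58.5 at dpp40 in spinous cells, against 40.9, 77.0, 197 and 148 CPM in basal cells; the hour at which skin was taken is not known here.

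At dpp40 against NP, 13 genes were 2-fold or more higher in spinous cells (0.191%) and 21 were 2-fold or more lower (0.309%), or 0.5% either way, the fewest of the 3 states. Serpinb12 was 0.294 times NP (0.260 to 0.332), with 15.4, 26.3, 12.3 and 4.71% of thinned spinous cells holding a UMI over the 4 states. Hspa1a, a heat shock gene that can share reads with its near-identical copy Hspa1b, had 143 CPM in NP, 220.3 at dpc16, 229 at dpp6 and 383 at dpp40, and Hspa1b had 121, 116, 101 and 237 CPM, against 241, 299.5, 396 and 635 CPM of Hspa1a in basal cells. Hes1, a Notch target, had 277 CPM in NP, 309 at dpc16, 421 at dpp6 and 522 at dpp40 in spinous cells, against 421, 506, 715 and 1048 CPM in basal cells. Cxcl14, a chemokine of epithelia, had 569 CPM in NP, 848 at dpc16, 542 at dpp6 and 354 at dpp40, and Gstm1 53.5, 34.3, 37.9 and 32.5 CPM in the same order. The granular and cornified envelope list, low at dpc16, had 20 of its 22 members above NP at dpp40 (45.9% of all genes were) with a median of 0.52, though without spinous cells that hold 3 or more UMIs of another type's markers the median was -0.19, with 4 of 20 tested members 2-fold or more lower. Under the same alternative the list's median at dpp6 was -0.47, with 5 of 20 lower, against 0.02 with none lower among all spinous cells, and at dpc16 it was -0.82, with 7 of 20 lower. The list's median was thus below NP in all 3 states once such cells were left out. That alternative took away 572, 1150, 638 and 816 spinous cells in NP, dpc16, dpp6 and dpp40. The sebaceous list, with its lipid genes that keratinocytes use, alone reached 3 UMIs in 542, 1063, 591 and 790. A fixed cut of 3 UMIs also depends on a cell's depth, so these values do not single out cells of another type. Among all spinous cells its 2 members past 2-fold at dpp40 or dpp6 were Tgm3 (lower at dpp40) and Sprr1a (higher at dpp6).

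**Figure D4:**
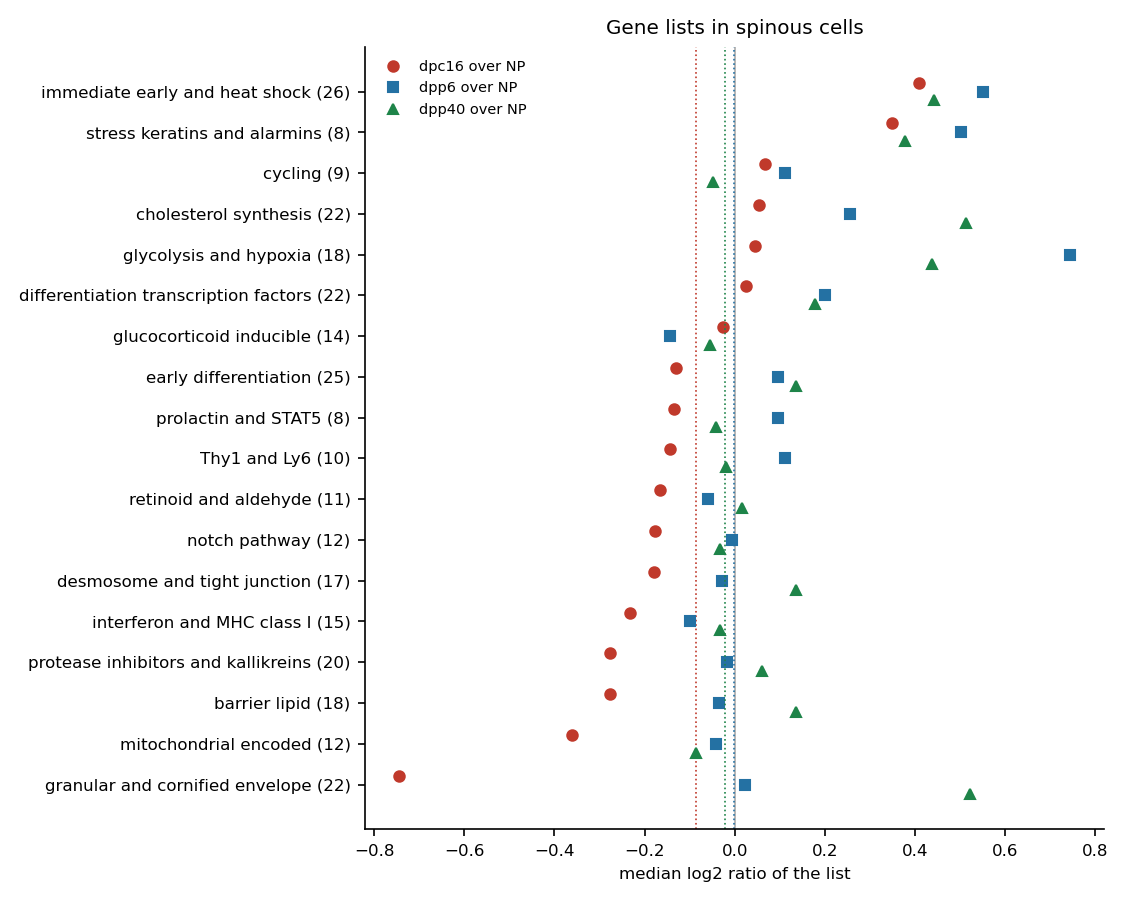
Median log2 ratio to NP in spinous cells for each gene list with 5 or more tested members, at dpc16 (circles), dpp6 (squares) and dpp40 (triangles); the number beside a list is its tested members, and dotted lines are the medians over all 6798 genes. The granular and cornified envelope list sits at -0.75 at dpc16, and the glycolysis and hypoxia list at 0.74 at dpp6.

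Most genes of the other programmes were under 2-fold from NP, as were most of all 6798 genes. Of all genes, 1.97, 0.927 and 0.5% were past 2-fold at dpc16, dpp6 and dpp40. A count of none in a short list is near that share. Of 25 early differentiation genes, 2 were 2-fold or more lower at dpc16 (Lypd5 and Cnfn), 1 at dpp6 (Mt4) and 1 at dpp40 (Endou), with medians of -0.13, 0.10 and 0.14. None of 17 desmosome and tight junction genes was past 2-fold in any state: Dsp, the desmosome's link to keratin, had 1238, 1099, 1155 and 1361 CPM, Dsg1a, a desmosomal cadherin, 864, 719, 755 and 868 CPM, and Perp 3061, 3252, 3426 and 3343 CPM. None of 12 Notch pathway genes was past 2-fold either, with medians of -0.18, -0.01 and -0.03. Among the differentiation transcription factors, those 2-fold or more higher at dpc16, a state in which 0.603% of all genes were, included the inhibitors of differentiation Id1, with 81.6 CPM in NP, 179.9 at dpc16, 142 at dpp6 and 93.0 at dpp40, and Id3, with 120.0, 249, 227 and 168 CPM. Klf4 had 534 CPM in NP, 623 at dpc16, 671 at dpp6 and 609.5 at dpp40, with 478, 658, 721 and 588 CPM in basal cells, and Gata3 had 557, 382, 616 and 631 CPM in spinous cells.

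None of 18 barrier lipid genes was past 2-fold in any state, with medians of -0.28, -0.03 and 0.14. That is near the share of all genes past 2-fold, 1.97, 0.927 and 0.5% at dpc16, dpp6 and dpp40. Abca12, the lipid transporter of lamellar granules, had 54.2 CPM in NP, 32.9 at dpc16, 48.7 at dpp6 and 54.9 at dpp40. Of 22 cholesterol synthesis genes, 1 (Insig1, a feedback regulator) was 2-fold or more higher at dpp6 and at dpp40, where 0.515 and 0.191% of all genes were, and 21 were above NP at dpp40 (45.9% of all genes), with a median of 0.51 and, for Fdps, 294 CPM in NP, 278 at dpc16, 307 at dpp6 and 318 at dpp40. Of 26 immediate early and heat shock genes, none was past 2-fold at dpc16 or dpp6 and 1 was 2-fold or more higher at dpp40, with medians of 0.41, 0.55 and 0.44. Of 15 interferon and MHC class I genes, H2-T23 was 2-fold or more lower at dpp6 and Usp18 2-fold or more higher at dpp40, with medians of -0.23, -0.10 and -0.03. Among 11 retinoid and aldehyde genes, Adh7 alone was past 2-fold, lower at dpc16, and Rbp2, a retinol carrier that spinous cells hold far above basal cells, had 52.3 CPM in NP, 92.3 at dpc16, 79.9 at dpp6 and 42.9 at dpp40, against 2.8, 2.95, 2.34 and 1.91 CPM in basal cells. Of 20 protease inhibitors and kallikreins, 3 were 2-fold or more higher (Serpinb12, Stfa1 and Stfa3) and 3 lower (Serpinb7, Serpina12 and Klk7) at dpc16, against 0.603 and 1.37% of all genes, 1 was lower at dpp6 and 3 at dpp40. Of 10 Thy1 and Ly6 genes, 1 was higher and 3 lower at dpc16 and 1 lower at dpp6, of 12 mitochondrially encoded genes 1, mt-Nd3, was lower at dpc16, as it was in basal and immune cells, and of 9 cycling genes, limited by the rule, none was past 2-fold.

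Tbx3, the T-box transcription factor gene that drives the recombinase of these mice, was low in spinous cells, with 4.58 CPM in NP, 19.5 at dpc16, 6.2 at dpp6 and 3.02 at dpp40, against 3.01, 9.55, 3.56 and 1.61 CPM in basal cells. After thinning, 1.11, 4.05, 1.99 and 0.696% of spinous cells held a Tbx3 UMI. Immune cells had 6.23, 3.47, 1.8 and 1.54 CPM of Tbx3, from 3, 3, 2 and 1 cells with a UMI. The NP level in spinous cells was not above theirs, but so few cells cannot set a background level. The EGFP transcript of the reporter had 3.2 CPM in NP, 2.99 at dpc16, 4.23 at dpp6 and 3.35 at dpp40 in spinous cells, 0.215, 1.01, 2.13 and 1.38 CPM in basal cells and 28.1, 22.2, 21.1 and 14.4 CPM in granular cells. Among thinned spinous cells 0.202, 0.337, 0.724 and 0.386% held an EGFP UMI, against 1.02, 0, 0.452 and 0% of immune cells. The exact upper bounds of the immune shares were 5.55, 2.11, 2.5 and 3.52%. With so few immune cells, this count cannot say whether EGFP in spinous cells was above background. In spinous cells Tbx3 was highest at dpc16, at 4.26 times NP (3.11 to 5.97), and EGFP was higher in granular than in spinous cells of each library.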

How the data were processed

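UMI counts per gene and barcode were deposited by the authors for 4 single-cell libraries (Chromium 3′ v2, per the labels' protocols), and FPKM per gene for 9 bulk libraries in 1 table. The submitters' processing notes name Cell Ranger 2.2.0, cutadapt 1.14, TopHat2, Cufflinks 2.2.1, Cuffdiff and the build mm10, with no roles. How barcodes were called cells is not given in the sources used here. The depth behind the FPKM is unknown. Barcodes numbered 6635, 12984, 9351 and 8716 in NP, dpc16, dpp6 and dpp40, the submitters state 6485, 12846, 9029 and 8552 cells, and 6491, 12853, 9031 and 8552 passed the limits on genes (200 or more) and mitochondrial UMIs (10% or less). Gene IDs and symbols are those of the files, and positions come from the mm10 annotation. The bulk columns headed WT were taken as WT dpc16, by exclusion, as NP and cKO are named in the remaining headings.

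UMIs of the spinous cells of a library were summed (9383090, 22098094, 10642422 and 14909804) and scaled to 1000000. Ratios to NP used 0.5 counts added, and genes with a mean of at least 10 CPM over the 4 libraries were called at 2-fold either way. Intervals are exact Poisson for levels and exact binomial for shares and ratios, at 95%; amplified molecules are not fully independent, so they cover counting error only. No doublet caller was run; leaving out cells of over 2 times the median UMIs, and cells with another type's markers, were the alternatives. For shares of cells with a UMI, each cell was thinned to 2000 UMIs (seed 1); no cell was shallower. Immune cells had at least 1% of UMIs from immune markers and were not spinous, and they could also meet the basal or cycling limits. Bulk values were tested as log2(FPKM + 1), which understates changes of low genes, with limma 3.58.1 in R 4.3.3 over the 9 libraries (3 group means, trend, mean of at least 1 FPKM, two-sided, Benjamini-Hochberg, threshold 0.05); the cKO libraries entered only the estimate of spread. Nothing in the labels says that each bulk library is a different animal, so a p-value here may reflect technical spread alone. Alternatives were other pseudocounts and filters, quantile normalization, a replicate block and leaving out each library. Scripts ran in Python 3.11.15 and were tested on simulated data.

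Named genes were the 12 with the largest lowest within-library ratio to all other kept cells among those of at least 100 CPM, the 10 highest and 10 lowest ratios to NP per state among genes of at least 50 CPM in the higher state, and, from each list, up to 4 by level and up to 4 by ratio. The cells, the lists and the rules were chosen with earlier results of these data known, some items that the rules name are not reported here, and genes outside the rules were chosen after their values were seen, as were the genes followed along the keratin range.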

Additional observations from a re-analysis of the deposited data

Results flagged for a closer look

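Krt2 was the single named gene whose dpc16 library lay on opposite sides of NP in spinous and basal cells while being 2-fold or more apart in spinous cells. The log2 ratio was 2.22 in spinous cells and -0.17 in basal cells. Krt2 had 95.9 CPM in spinous cells at dpc16 and 20.6 CPM in NP, against 9.45 CPM at dpc16 and 10.5 CPM in NP in basal cells. With 1 library per state the difference was not tested. The basal values lay near those of immune cells, 10.4 CPM at dpc16 and 8.31 CPM in NP. These immune values came from only 9 and 2 cells with a UMI.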

How the results depend on the processing

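The share of spinous cells, in the order NP, dpc16, dpp6 and dpp40, was 18.5, 20.9, 14.4 and 18.5% with a keratin minimum of 0.4% of UMIs and 9.07, 11.7, 7.42 and 9.09% with 1.6%. Without cells of over 2 times the median UMIs it was 12.8, 16.5, 10.6 and 12.04%, and without cells holding 3 UMIs of another type's markers 6.41, 9.51, 5.17 and 5.59%. Thinned to 2000 UMIs, the shares of NP, dpc16 and dpp40 were 17.1, 19.3 and 16.7%. The dpc16 library held the highest share and dpp6 the lowest in each of these. Genes 2-fold or more apart at dpc16, dpp6 and dpp40 numbered 40, 21 and 4 with a minimum of 50 CPM and 529, 329 and 264 with 1 CPM. Thinning gave 110 genes at dpp6 and 74 at dpp40, and leaving out cells with another type's markers 115 and 91. The cause of these shifts was not tested. Of 180 values of the named genes under alternatives in each comparison, none changed direction, and 179 (dpc16), 179 (dpp6) and 74 (dpp40) were 2-fold or more. These genes were chosen for the largest ratios in the same libraries, so an unchanged direction is no independent check. Weights over 4 keratin bins were not run, because the highest bin was empty in 2 libraries. Equal weights over 3 bins and a minimum of 1 Lor UMI were chosen after seeing the data, and gave 136 and 129 genes at dpc16. In bulk, 15 genes passed: 2 with no filter, 10 with the heading number as a replicate block, and 5 to 15 with 1 library left out, with 7 when dpc16 library 1 was dropped, 9 for dpc16 library 3, 8 for NP library 2, 5 for NP library 3 and 8 for cKO library 1. Same-numbered dpc16 and NP libraries did not deviate together (correlations -0.07, -0.07 and -0.21), so the numbers were not taken as pairs. One library per state and free RNA limit every single-cell value, and rare transcripts under about 10 CPM rest on few UMIs.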

Other observations

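Hba-a1, an alpha globin gene whose protein carries oxygen in red cells, was measured in spinous cells above the level of basal, granular and immune cells, and was chosen after its values were seen. It had 198 CPM in NP, 103 at dpc16, 200.3 at dpp6 and 217 at dpp40 in spinous cells, against 19.6, 9.18, 8.74 and 5.96 CPM in basal cells, 49.9, 40.0, 52.9 and 58.1 CPM in granular cells and 24.9, 13.9, 8.11 and 10.8 CPM in immune cells. Over the 3 bins of keratin share it had 81.7, 247 and 415 CPM in NP and 76.8, 263 and 382 CPM at dpp40. After thinning, 24.3, 11.5, 23.3 and 26.6% of spinous cells held a UMI, against 3.97, 1.47, 1.73 and 1.38% of basal cells. Hbb-bs, a beta globin gene, had 34.6 CPM in NP, 43.0 at dpc16, 8.83 at dpp6 and 0.402 at dpp40 in spinous cells, against 43.3, 25.1, 11.2 and 0.153 CPM in basal cells, so at dpp40 the alpha globin gene was present with almost no beta globin. Hba-a2, a near-identical copy with which Hba-a1 can share reads, had 28.8, 12.4, 19.2 and 21.8 CPM, and Alas2, which red cells need for haem, had 0, 0.136, 0 and 0 CPM. A list of red cell genes, made of globins and Alas2, summed to 267, 161, 229 and 239 CPM in spinous cells. In kept cells that were not spinous, basal, granular or cycling it summed to 2664, 1363, 927 and 29.0 CPM. The part of red cell RNA in the spinous values was not tested. In bulk, Hba-a1 listed 0.519, 0.805 and 1.58 FPKM in WT dpc16 and 1.67, 2.19 and 3.76 FPKM in WT NP.

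Wfdc18, a secreted protein with a protease inhibitor fold, was held by few spinous cells: 0.746 CPM in NP, 39.2 at dpc16, 74.3 at dpp6 and 0.402 at dpp40 came from 5, 118, 57 and 4 cells with a UMI. In granular cells it had 2.81, 168, 582 and 0 CPM. Several loci moved alike in spinous, basal and immune cells: Gm10076 had 356, 228, 61.2 and 180.0 CPM in spinous cells, against 383, 215, 61.5 and 180.3 CPM in basal and 355, 169, 57.6 and 179 CPM in immune cells, and Arf5, Gm2000, Gm8186, Gm8797, Gm10263, Gm10020, Lce1a1 and Lce1a2 likewise had similar levels in spinous and basal cells of each library.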
